A study of Mus musculus with 12 samples.

Results

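The 10 genes described here, Xpc, Ddb1, Ddb2, Ercc6, Xpa, Ercc2, Ercc3, Ercc1, Ercc4 and Ercc5, encode core proteins of nucleotide excision repair. They were taken by gene symbol from the expression table, where all 10 were found among 14852 listed genes, and they carried 24 of the 19049 ac4C peaks in the peak table. The cells were ID8, an established mouse line of ovarian surface epithelial origin used as a model of ovarian cancer, labelled as control or as treated with cisplatin. Neither dose nor duration is known from the labels, nor whether replicates came from separate cultures, so p-values measure only the spread between libraries, which may be technical. The series concerns N4-acetylcytidine (ac4C), the RNA modification made by NAT10, in cisplatin-treated cells. For control and for cisplatin there were 3 input libraries and 3 libraries of RNA enriched with an ac4C antibody (IP), 12 in all and 4 groups. Levels per library were analysed in the 6 input libraries, and the IP libraries only by way of the peaks the authors called.

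Nucleotide excision repair removes lesions that distort the double helix, among them the intrastrand crosslinks that cisplatin leaves between neighbouring purines. In the global branch, XPC finds the distortion, and the DDB1 and DDB2 proteins help it to find lesions that distort little. In the transcription-coupled branch, ERCC6 (also called CSB) acts where RNA polymerase II has stalled. Both branches then bring in TFIIH, whose helicase subunits ERCC3 (XPB) and ERCC2 (XPD) open the DNA, while XPA checks the damage. ERCC4 (XPF) with its partner ERCC1 cuts on the 5′ side of the lesion and ERCC5 (XPG) on the 3′ side, after which DNA polymerase fills the gap and a ligase closes it. DDB2 and XPC are known as p53 target genes in human cells.

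Promoter sequences were available from RefSeq (build GRCm38.p6) for 7 of the 10 members, all but Xpc, Ddb2 and Ercc3. Xpa and Ercc2 are shown because their RNA moved in opposite directions after cisplatin. Each runs 5′ to 3′ along the gene, from 250 bases before an annotated start up to at most 30 bases inside the gene's annotated span, and capitals mark matches to the motifs named below them. The Xpa sequence is chr4:46196315-46196561 (minus strand) and that of Ercc2 is chr7:19381767-19382046 (plus strand).
Xpa: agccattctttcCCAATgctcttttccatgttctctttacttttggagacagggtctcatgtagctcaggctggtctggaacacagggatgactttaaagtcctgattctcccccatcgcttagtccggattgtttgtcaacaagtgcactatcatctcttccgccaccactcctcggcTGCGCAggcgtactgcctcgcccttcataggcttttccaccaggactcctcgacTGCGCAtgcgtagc
Ercc2: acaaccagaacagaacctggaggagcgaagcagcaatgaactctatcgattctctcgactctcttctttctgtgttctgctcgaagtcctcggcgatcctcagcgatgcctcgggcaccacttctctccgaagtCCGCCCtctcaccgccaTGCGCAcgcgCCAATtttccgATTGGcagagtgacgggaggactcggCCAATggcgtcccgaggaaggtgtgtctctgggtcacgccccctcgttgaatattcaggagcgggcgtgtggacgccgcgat

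The motifs were searched on both strands in windows of 280 bases, 250 before the start and 30 after it, and a match is a description of the letters, not a bound site. The windows of Ercc1, Ercc4 and Ercc5 lie wholly inside the annotated span of their gene, and that of Ercc6 mostly does. Their starts are thus downstream of the 5′ end of that span. The CCAAT box (CCAAT) was in the windows of Xpa, Ercc2, Ercc4 and Ercc5 and in 36.1% of 32851 mouse promoters of that length. The core of the NRF1 motif (TGCGCA) was in Xpa and Ercc2 and in 7.39% of promoters, and the GC box (GGGCGG) in Ercc1, Ercc2, Ercc6 and Ddb1 and in 34.7%. Ercc6 alone of the 7 held an E-box (CACGTG), which 6.79% of promoters had. No match was found in the 7 windows for the TATA box (TATAAA, 13.1% of promoters), the ETS motif (CCGGAAG, 8.45%), the AP-1 motif (TGANTCA, 7.46%), the cyclic AMP response element (TGACGTCA, 1.74%) or the p53 half-site (7.84%), which says nothing of Xpc and Ddb2, whose windows were not searched.

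Fragments recovered from the FPKM steps totalled 19921365 to 21111362 per control input library and 21437552 to 29280272 per cisplatin input library. Of 9 markers of ovarian surface epithelium and mesothelium, 8 had a control mean of at least 1 FPKM (fragments per kilobase of transcript, scaled for sequencing depth), and their summed level was 2096 to 2128 FPKM in control and 2954 to 3302 FPKM in cisplatin libraries. The keratin genes Krt8, Krt18 and Krt19 made up most of that sum, and of the 8 tested markers 5 were higher and 3 lower, with Wt1 going from a mean of 45.1 to 12.4 FPKM, Upk3b from 81.6 to 61.1 FPKM and Muc16 from 1.21 to 0.233 FPKM. Of 7 leukocyte markers 1 was listed (Cd68, summed level 2.22 to 2.57 FPKM in control and 7.504 to 9.72 in cisplatin), of 4 endothelial markers 1 (Tek, 0.723 to 0.931 and 2.55 to 2.81 FPKM), and of 5 fibroblast markers 3 (18.98 to 19.8 and 11.1 to 12.7 FPKM). Ptprc, Pecam1 and Thy1 were not listed. The part of other cells in the results was not tested. The p53 targets Cdkn1a, a cell cycle inhibitor, and Mdm2, the ubiquitin ligase that restrains p53, rose 27.1-fold and 4.91-fold in the cisplatin libraries.

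The first comparison set the input RNA of the repair genes in cisplatin libraries against that in control libraries. After cisplatin, RNA of Ercc3, Ddb2, Ercc2, Ercc5 and Ercc6 was higher and RNA of Xpa, Ercc4, Ercc1 and Xpc was lower. The changes ran from a 3.87-fold rise of Ddb2 to a 48.7-fold lower mean of Xpa, while Ddb1, by far the most abundant of the 10, changed by 2.15%. In the limma fit across all genes, which works on log2(FPKM + 1) with p-values adjusted by Benjamini-Hochberg and called under 0.05, 9 of the 10 members passed, 5 higher and 4 lower. Over all 11449 tested genes 81.3% passed, 40.1% higher and 41.1% lower, so the share of members that passed is near the background. The control and cisplatin values did not overlap in 9 of the 10 members, as in 84.2% of all tested genes. The median absolute log2 change was 0.49 in the members and 0.52 in all tested genes, and the signed medians were 0.15 and -0.003. Xpa reached 1 FPKM in control libraries only, and Ddb2 in 1 control library and the 3 cisplatin libraries, so both entered the fit through the group where they are high. Without any filter the same counts of members passed, 5 higher and 4 lower. In the authors' deposited table, 8 of the 10 members had an adjusted p under 0.05, where 77.8% of all listed genes did. In these bulk libraries, fewer cells with a transcript and less of it per cell cannot be told apart.

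**Figure D1:**
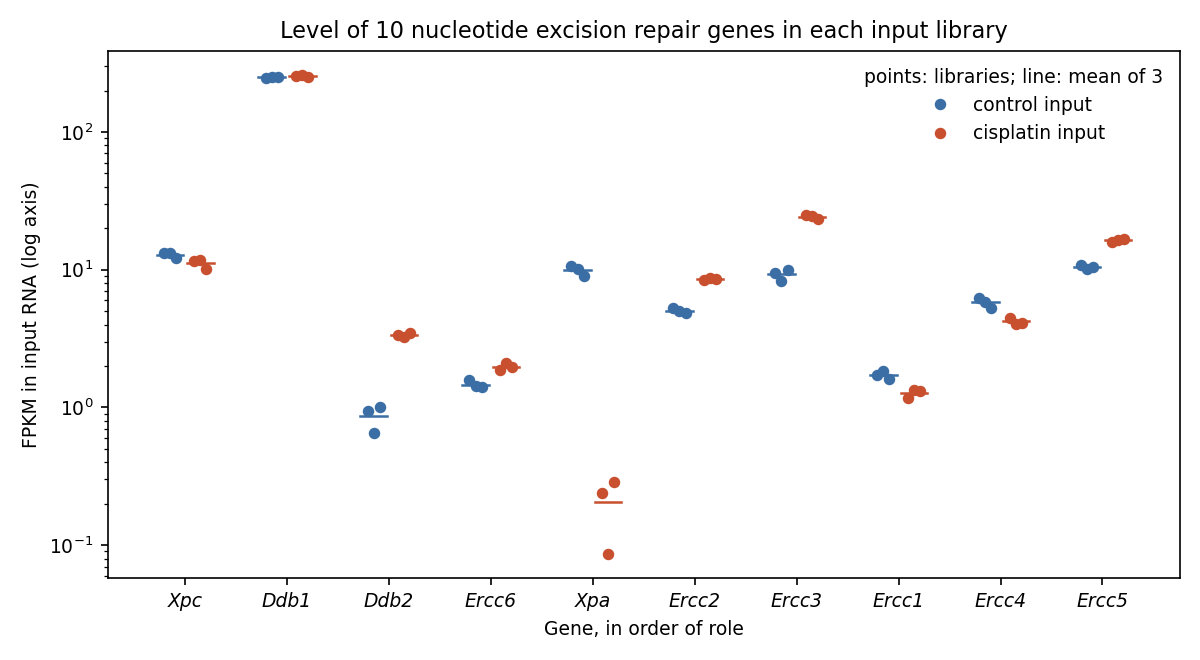
FPKM in input RNA on a log axis for the 10 genes in order of role, with 1 point per library (3 control, 3 cisplatin) and a line at each group's mean. Xpa lies between 9.07 and 10.7 FPKM in control and below 0.3 FPKM in cisplatin libraries, and Ddb1 at about the same level in both groups.

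Among the genes that recognise damage, Xpc encodes the sensor of the global branch. It measured 13.3, 13.2 and 12.1 FPKM in control replicates 1, 2 and 3, and 11.5, 11.7 and 10.2 FPKM in cisplatin replicates 1, 2 and 3. All cisplatin values lay below all control values, but by a margin smaller than the spread within either group. The fitted change was -0.19 on the log2 scale (SE 0.0639, limma adjusted p = 0.0257), a fall of the mean by 13.3%. The Xpc call was lost without control replicate 1 (-0.17, limma adjusted p = 0.0863), control replicate 2 (-0.17, 0.0855) or cisplatin replicate 3 (-0.13, 0.0507).

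Ddb2, which encodes the subunit that contacts the lesion, was the scarcest member in control cells, with 0.939, 0.655 and 1.01 FPKM. In cisplatin libraries it measured 3.37, 3.26 and 3.46 FPKM. These values correspond to 159 fragments over the 3 control libraries and 705 over the 3 cisplatin libraries. The cisplatin libraries were all far above the highest control library and close to each other. The fitted change of Ddb2 was 1.23 on the log2 scale (SE 0.0848, limma adjusted p = 7.08e-06). On that scale 7.56% of all tested genes rose by at least as much as Ddb2, whose change the added 1 FPKM compresses. On recovered fragments, where limma-voom adds a smaller constant, it was 1.90. The span of Ddb2 overlaps that of Acp2 in RefSeq, and Acp2 went the other way, from a mean of 4.69 to 2.39 FPKM. No source used here gives the strand setting of the counting, so reads of the shared stretch cannot be assigned to either gene.

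Ddb1 encodes the adaptor that holds DDB2 on the CUL4 ubiquitin ligase and serves other substrate receptors as well. It measured 248, 252 and 249 FPKM in control libraries against 255, 261 and 250.2 FPKM in those with cisplatin. The groups overlapped, and Ddb1 ranked 100 of 11449 tested genes by its control mean. The log2 change was 0.03 (95% interval -0.04 to 0.10, limma adjusted p = 0.365), which does not show that the level was the same. With each library rescaled to a common sum of FPKM the change was -0.07 (adjusted p = 0.076), with limma-voom on fragments -0.04 (0.245), and with quantile normalization -0.15 (0.00246), so the direction for Ddb1 depends on the scaling.

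Ercc6, the sensor of the transcription-coupled branch, measured 1.57, 1.43 and 1.40 FPKM in control libraries against 1.88, 2.09 and 1.97 FPKM in those with cisplatin. The groups did not overlap, and the mean rose 1.35-fold (log2 change 0.27, SE 0.0612, limma adjusted p = 0.00415). Its fragments numbered 1265 in control and 1967 in cisplatin libraries.

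Of the genes that open the DNA and verify the lesion, the TFIIH helicase genes rose and Xpa fell. Ercc3 measured 9.42, 8.34 and 9.99 FPKM in control libraries against 24.97, 24.6 and 23.4 FPKM in those with cisplatin. Every cisplatin library was far above every control library. The log2 change of Ercc3 was 1.31 (SE 0.0651, limma adjusted p = 1.5e-06), which 6.52% of all tested genes reached or exceeded. Ercc2, the gene of the other helicase subunit, measured 5.27, 5.03 and 4.86 FPKM in control libraries against 8.41, 8.78 and 8.50 FPKM in those with cisplatin. Its groups were also far apart relative to their spread, with a 1.70-fold higher mean (log2 change 0.66, SE 0.0489, limma adjusted p = 1.02e-05). The span of Ercc2 overlaps that of Klc3, a kinesin light chain gene with means of 2.24 and 3.30 FPKM, which limits the assignment of reads as for Ddb2. The microRNA gene Mir343 also lies in the span of Ercc2 and was listed at 0 in the control libraries, with a mean of 37.9 FPKM in the cisplatin libraries. Only its group means are given here, with no fragments and no test result. Reads of the stretch it shares with Ercc2 cannot be assigned to either gene.

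Xpa, which encodes the protein that verifies damage and anchors the incision complex, measured 10.7, 10.1 and 9.07 FPKM in control libraries against 0.239, 0.0865 and 0.287 FPKM in those with cisplatin. In fragments this was 456, 438 and 372 against 11, 5 and 12. The 3 cisplatin libraries together held 28 fragments (exact 95% Poisson interval 18.6 to 40.5, counting error only) and the control libraries 1266 (1197 to 1338). No library of one group came near the other group. The fitted change of Xpa was -3.19 on the log2 scale (SE 0.0888, limma adjusted p = 1.64e-07), and -5.82 with limma-voom on recovered fragments, since the added constant of 1 FPKM shortens the change of a gene near 0. On the log2(FPKM + 1) scale, a fall at least as large was seen in 59 of 11449 tested genes (0.515%). Ncbp1, the nearest RefSeq gene on one side at 2817 bp, encodes a subunit of the nuclear cap-binding complex and had means of 25.8 FPKM in control libraries against 22.9 FPKM in those with cisplatin. A different assignment of the reads of Xpa by the processing was not tested.

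Among the incision genes, the 5′ nuclease pair was lower and the 3′ nuclease higher. Ercc5 measured 10.8, 10.2 and 10.4 FPKM in control libraries against 16.0, 16.3 and 16.8 FPKM in those with cisplatin. The groups were separated by many times their spread, with a 1.56-fold higher mean (log2 change 0.60, SE 0.0401, limma adjusted p = 5.99e-06). Ercc4, the catalytic subunit of the 5′ nuclease, measured 6.28, 5.81 and 5.31 FPKM in control libraries against 4.49, 4.04 and 4.10 FPKM in those with cisplatin. It fell by 27.3% without overlap of the groups (log2 change -0.38, SE 0.0702, limma adjusted p = 0.00152).

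Its partner Ercc1 measured 1.72, 1.84 and 1.62 FPKM in control libraries against 1.16, 1.35 and 1.31 FPKM in those with cisplatin, on 361 and 306 fragments. The groups did not overlap, and the mean fell by 26.2% (log2 change -0.26, SE 0.0640, limma adjusted p = 0.00648). The Ercc1 call was lost with quantile normalization (-0.13, limma adjusted p = 0.111) and in the authors' deposited table (log2 fold change -0.44, adjusted p = 0.0569). Cd3eap, a subunit gene of RNA polymerase I whose span overlaps that of Ercc1 in RefSeq, went from a mean of 10.5 to 22.5 FPKM, and reads of the shared stretch cannot be assigned without the strand setting.

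The exact two-sided permutation test on single genes gave p = 0.1, the smallest that 3 against 3 allows, for each of the 9 members whose groups did not overlap, and p = 0.2 for Ddb1. By mean FPKM, which accounts for gene length, the order in control cells was Ddb1 (249.7), Xpc (12.9), Ercc5 (10.5), Xpa (9.94), Ercc3 (9.25), Ercc4 (5.80), Ercc2 (5.05), Ercc1 (1.73), Ercc6 (1.47) and Ddb2 (0.869). The library values of Ercc5, Xpa and Ercc3 overlapped, so their order is not resolved. After cisplatin Ercc3 (24.3) and Ercc5 (16.4) stood next after Ddb1 (255), followed by Xpc (11.2), Ercc2 (8.56), Ercc4 (4.21), Ddb2 (3.36), Ercc6 (1.98), Ercc1 (1.27) and Xpa (0.204), with no overlap between neighbours in that order. Xpa thus stood last after cisplatin.

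Ercc3 and Xpa had the largest rise and fall among the members on the log2(FPKM + 1) scale, although Ddb2 rose by the larger fold of the means. The tested genes whose 6 input values lay closest to those of Ercc3, by Euclidean distance on log2(FPKM + 1), were Pwp2, a ribosome assembly gene (distance 0.184), Ogfr, an opioid growth factor receptor gene (0.202), and Pim3, a kinase gene (0.244). Those closest to Xpa were the olfactory receptor gene Olfr1033 (0.238), Kirrel3 (0.329) and Magi1 (0.332), cell adhesion and junction genes, all with means of 8.76 to 9.99 FPKM in control and at most 0.354 FPKM in cisplatin libraries. The measure rests on 6 libraries in 2 groups and mostly reflects level and treatment.

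The other 49 genes of the pathway, from a list of recognition partners, transcription-coupled repair, TFIIH, RPA, and gap filling, moved in both directions as well. Of these, 23 were higher, 19 lower and 7 did not pass in the limma fit, with a median log2 change of 0.09. That is 42 of 49, again near the 81.3% of all tested genes. Rescaling to a common sum gave 17 higher and 21 lower, and limma-voom on fragments 21 and 21.

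The list for TFIIH and its kinase module held 9 genes other than Ercc2 and Ercc3. Of these, 3 rose and 5 fell, and 2 and 5 with rescaling. Mms19, listed with them but part of neither the core nor the kinase module, was among those that rose (log2 change 0.22). Genes of TFIIH are given by core and kinase module, a split made after the values were seen, and the difference between the parts was not tested. In the core, which holds the helicases, 4 of 7 subunit genes rose, 2 fell and 1 did not pass. Gtf2h1 rose from 13.8 ± 0.123 to 40.0 ± 3.02 FPKM (mean and SD of n = 3 libraries, here and below), a 2.91-fold change beside the 2.63-fold change of Ercc3, and Gtf2h5, whose product stabilises TFIIH, from 7.26 ± 0.419 to 12.2 ± 0.663 FPKM. All 3 genes of the kinase module fell, beside 41.1% of all tested genes. Ccnh (cyclin H) went from 7.85 ± 0.160 to 3.20 ± 0.360 FPKM, its kinase Cdk7 from 4.09 ± 0.253 to 2.05 ± 0.220 FPKM, and Mnat1, the assembly factor, from 5.16 ± 0.199 to 3.21 ± 0.406 FPKM, with limma adjusted p-values of 6.09e-06, 5.7e-05 and 0.000422. The kinase module is not needed for the incision reaction itself and also serves transcription and the cell cycle.

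The counts of the lists stand beside 40.1% higher and 41.1% lower over all tested genes. Among 8 recognition partners 2 rose and 5 fell, also with rescaling to a common sum. Hmgn1, a nucleosome-binding protein gene, rose from 45.2 ± 9.44 to 89.7 ± 21.5 FPKM and Cetn2, a partner of XPC, from 7.22 ± 0.639 to 10.9 ± 0.402 FPKM, while Rbx1, the RING subunit of the CUL4 ligase that DDB1 and DDB2 belong to, fell from 20.02 ± 1.02 to 11.8 ± 1.22 FPKM and the chromatin remodeller gene Chd1l from 9.05 ± 0.401 to 7.18 ± 0.407 FPKM. Of 9 genes of transcription-coupled repair 4 rose and 4 fell, and 1 and 5 with rescaling. Ercc8 (CSA), which works with ERCC6, rose from 2.24 ± 0.116 to 3.19 ± 0.166 FPKM, a 1.42-fold change beside 1.35-fold in Ercc6. The elongation factor gene Tcea1 rose from 37.6 ± 0.637 to 44.7 ± 4.09 FPKM, a call lost with rescaling to a common sum (adjusted p = 0.0600) and quantile normalization (0.251). The splicing-associated genes Ppie and Xab2 fell, the first to 7.48 ± 0.347 from 11.2 ± 1.21 FPKM and the other to 6.16 ± 0.105 from 8.33 ± 0.167 FPKM.

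Of 5 genes for the single-strand binding protein RPA and partners of incision, 4 rose and 1, the deubiquitinase gene Usp45, fell, with the same counts after rescaling. Rpa2 went from 9.19 ± 0.0873 to 15.6 ± 1.35 FPKM and Rpa3 from 1.24 ± 0.437 to 2.73 ± 0.759 FPKM. Usp45, whose product acts on ERCC1, went from 9.20 ± 0.351 to 7.16 ± 0.198 FPKM. In gap filling and ligation, 10 of 18 rose and 4 fell, and 8 and 5 with rescaling. Pold1, the catalytic subunit of DNA polymerase delta, rose from 6.39 ± 0.505 to 17.4 ± 2.27 FPKM and Polk, a polymerase that also bypasses lesions, from 3.98 ± 0.425 to 10.5 ± 0.754 FPKM, whereas the clamp loader genes Rfc3 and Rfc2 fell, to 3.30 ± 0.701 from 5.52 ± 0.460 FPKM and to 6.63 ± 0.568 from 8.90 ± 0.107 FPKM. Most genes of gap filling also serve DNA replication.

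**Figure D2:**
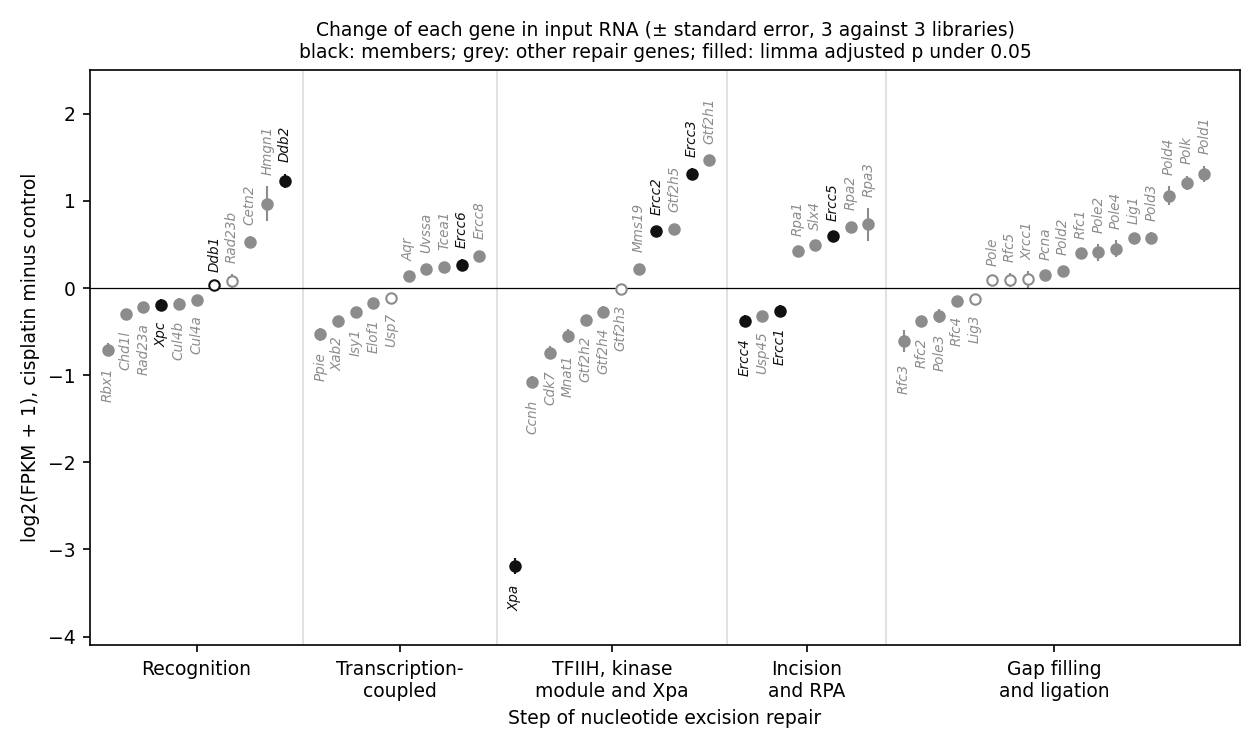
Change on the log2(FPKM + 1) scale, cisplatin minus control input, with its standard error, for the 10 members (black) and 49 other genes of the pathway (grey), by step of repair. Filled points passed a limma adjusted p of 0.05, which 9 members and 42 other genes did, and Xpa at -3.19 stands below all other genes plotted.

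The second comparison asked where ac4C peaks lay in the RNA of these genes and whether they differed between the treatments. All values of peaks are those of the authors' deposited table, which holds 1 comparison over all libraries and no value per library. It gives the fold enrichment of IP over input, a log2 difference in enrichment between cisplatin and control, and adjusted p-values. The file headers do not say which treatment a positive log2 difference stands for, so signs are given as deposited and no direction is drawn. Peaks were found in 8 of the 10 members, and in 71.2% of all tested protein-coding genes. Ddb1 had 6 peaks, Ercc5 5, Ercc2 4, Ercc4 3, Ercc3 and Ercc6 2 each, and Ercc1 and Ddb2 1 each. Xpa and Xpc had none, although Xpc had the second highest level among the members in control cells. All 24 peaks lay within the RefSeq span of their gene.

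By the authors' class, 11 of the 24 peaks lay in coding sequence (50.5% of all peaks), 4 in 3′ untranslated regions (29.5%), 1 in a 5′ untranslated region (2.28%) and 8 in exons without further label (17.6%). Fold enrichment ran from 1.22 to 43.5 with a median of 6.03, beside 7.05 over all peaks in the table. Certain fold values, such as 7.05, 8.23 and 11.8, recur across many peaks. Read counts under the peaks are not given, so how many input reads a fold rests on is not known. The peak itself had an adjusted p above 0.05 in the peak of Ddb2 (0.155) and in 1 peak of Ercc4 (0.748), as in 2035 of the 19049 peaks.

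The authors' adjusted p of the difference was under 0.05 in 9 of the 24 member peaks, which is 37.5% beside 46.2% of all peaks. All 9 had a positive log2 difference as deposited. Over all peaks, 36.5% passed with a positive and 9.62% with a negative value, and 75.8% of all peaks had a positive value, so the sign among the members is mostly that of the table as a whole. The 9 peaks lay in 4 of the 8 members with a peak, namely Ddb1 (5 of 6), Ercc5 (2 of 5), Ercc3 (1 of 2) and Ercc4 (1 of 3). Of all genes with a peak, 56.1% had at least 1 differential peak. At an adjusted p of 0.01, 5 of the 24 passed, 4 of them in Ddb1 and 1 in Ercc5.

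Ddb1, whose input level did not pass the test, thus held most of the differential peaks of the group. The smallest adjusted p was that of a coding peak of 360 exonic bases near the 3′ end (chr19:10627574-10629126), with a log2 difference of 2.31, a fold enrichment of 1.61 and a log10 adjusted p of -143. A neighbouring coding peak of 121 bases (chr19:10625195-10625315) had a log2 difference of 3.43, and the peak in the 3′ untranslated region (chr19:10629335-10629723) one of 2.11. The first coding peak (chr19:10606942-10607891) had the lowest enrichment of all member peaks, 1.22, and a log2 difference of 1.16. Of the peaks between them, the one at chr19:10622320-10624727 had a log2 difference of 0.133 (adjusted p = 0.0457) and the one at chr19:10612986-10619058 had 0.107 (adjusted p = 0.151). The larger differences thus lay toward both ends of the transcript, and the 2 peaks between them had small ones. Enrichment over Ddb1 was 1.22 to 3.72 and lower than in most other members. Among 142 peaks in genes of 200 to 300 FPKM in control, where the RNA is deeply read as in Ddb1, 86.6% were differential and the median fold enrichment was 2.79. Among 11550 peaks in genes of 1 to 20 FPKM, the range of the other members apart from Ddb2, the values were 38.6% and 7.71. Without Ddb1, 4 of 18 member peaks were differential (22.2%).

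**Figure D3:**
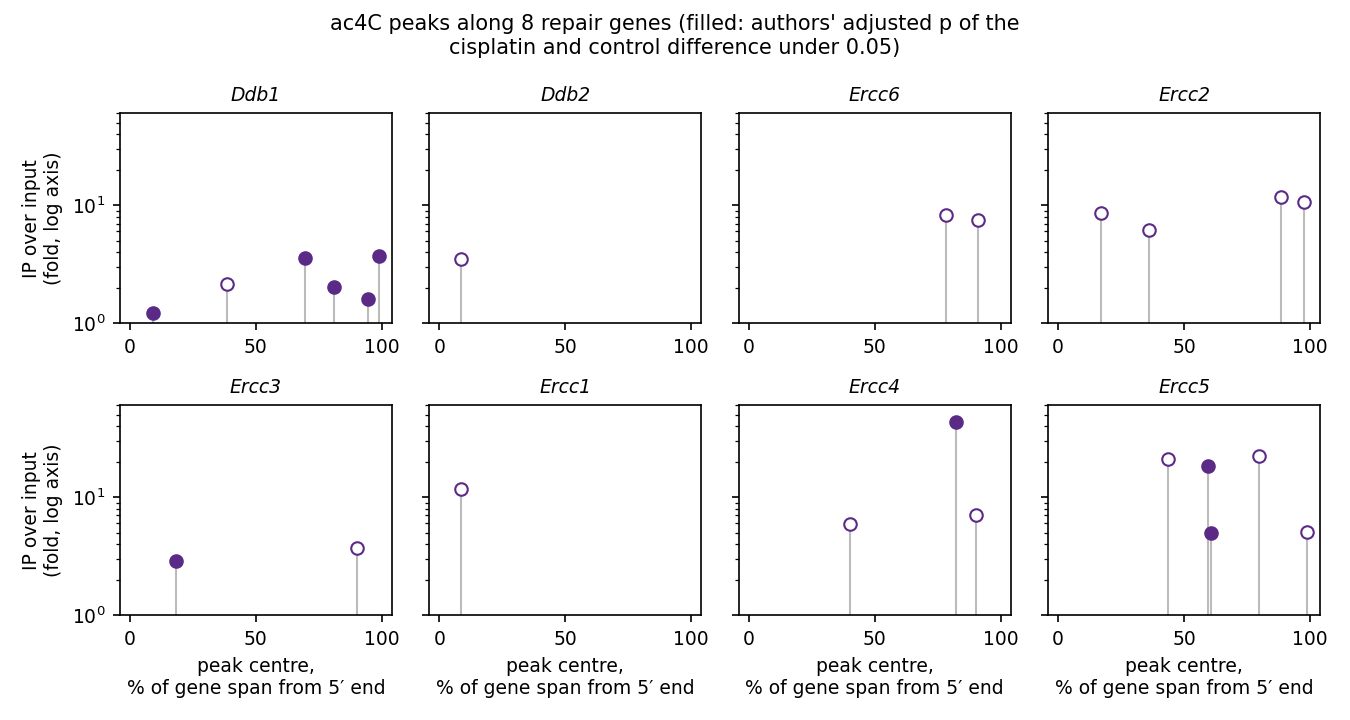
Fold enrichment of IP over input (log axis) against the deposited position of the peak, for the 24 peaks of 8 members. Position is a percent of the gene's RefSeq span from its 5′ end. The axis calls it the peak centre, but in peaks of several blocks it can lie far from the midpoint, as in the 43.5-fold peak of Ercc4. Filled points had an authors' adjusted p of the difference under 0.05, which 5 of the 6 peaks of Ddb1 and 4 of the 18 others had, and the peak of Ercc4 at 43.5-fold is the highest.

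The other peaks past the threshold were in genes of lower level. Ercc4 held the member peak with the highest enrichment, 43.5-fold, in the 98.0th percentile of all peaks in the table. How many input reads lie under that peak is not known. It was assigned to the 3′ untranslated region, joined 2 blocks (chr16:13132865-13144495) and had the largest log2 difference of the group, 5.17 (adjusted p = 0.0398). Its coding peak (chr16:13126418-13126598) had 3.58 (adjusted p = 0.0661). In Ercc5, neighbouring exonic peaks at chr1:44167139-44167558 and chr1:44167678-44173342 were 18.2-fold and 5.00-fold enriched, with log2 differences of 3.55 (adjusted p = 0.0427) and 4.39 (adjusted p = 1.26e-05). The most enriched peak of Ercc5, 22.3-fold at chr1:44174250-44175922, had a log2 difference of 0 (adjusted p = 0.728), and the peak at chr1:44158311-44163937, 21.2-fold, had 0.881 (adjusted p = 0.155). In Ercc3, the 5′ peak (chr18:32245739-32245918) had 2.82 (adjusted p = 0.049), and the 3′ peak did not pass (2.00, adjusted p = 0.321).

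The remaining members had no differential peak under their own name. Another peak that overlaps the span of Ddb2, named for Acp2 in the authors' table, was differential. The 4 peaks of Ercc2 were 6.17 to 11.8-fold enriched, with log2 differences of 1.00 to 3.39 and the smallest adjusted p in the 3′ untranslated region (chr7:19395274-19395484, 0.0724). Ercc6 had coding peaks of 8.23 and 7.44-fold with log2 differences of 0.415 and -1.88 (adjusted p = 0.729 and 0.055). Ercc6 and Ddb2 held the only negative values among the member peaks, that of Ddb2 being -4.58 (chr2:91234881-91235029, adjusted p = 0.0832). The peak of Ercc1 (chr7:19345047-19345695), in the 5′ untranslated region by the authors' class, was 11.8-fold enriched with a log2 difference of 2.32 (adjusted p = 0.485).

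**Figure D4:**
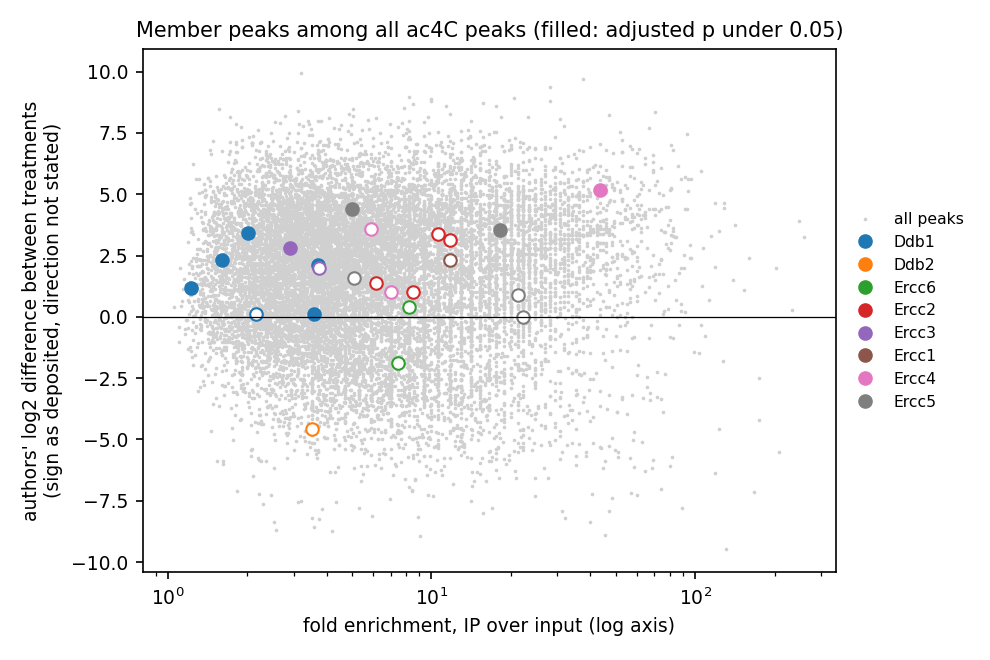
The authors' log2 difference between the treatments, with its sign as deposited, against fold enrichment of IP over input (log axis) for all 19049 peaks (grey) and the 24 member peaks (colours, filled where the authors' adjusted p was under 0.05). The member peaks lie within the cloud of all peaks, 21 of 24 above 0 with a median of 1.79, beside a median of 1.58 over all peaks.

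Input levels and peaks did not follow each other in a simple way across the members. Ercc3, Ercc2 and Ercc5 all rose in input RNA, and their differential peaks numbered 1, 0 and 2. Ercc4 fell and had 1, Ercc1 fell and had 0, and Ddb1, with no call in input RNA, had 5. Ddb2 and Ercc6 rose and had 0, and Xpa and Xpc fell and had no peak at all. The members differ in number of peaks and in depth, so these counts are not a like measure across them.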

How the data were processed

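The series compared cisplatin-treated with control ID8 cells by ac4C immunoprecipitation and input RNA sequencing, 3 libraries per group. Tools listed in the submitters' processing notes are HISAT2, HOMER, fastp and FastQC, and the build is mm10; versions and roles are not listed. The authors deposited FPKM values for the 6 input libraries, beside their own log2 fold change with raw and adjusted p-value; no source used here names that test. The authors' deposited peak table gives, per the file headers, a fold enrichment (a ratio of IP over input), a log2 difference, and log10 p and adjusted p. Peak coordinates were converted to counting from 1.

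A gene entered the test if 3 input libraries or more reached 1 FPKM. The test was limma's (version 3.58.1, R 4.3.3; lmFit, then eBayes with a trend) on log2(FPKM + 1), with p-values adjusted over 11449 genes. The fit was also run on simulated data with a far smaller share of changed genes than here, which does not test the calls given here. FPKM steps gave whole fragments for 14850 of 14852 genes (tolerance 0.0001), used for depth and for voom scaled by library totals. Gene spans and promoters came from RefSeq GRCm38.p6, the assembly behind mm10. Python 3.11.15 did the rest.

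Same-numbered control and cisplatin libraries deviated from their group means with correlations of 0.0975, -0.116 and 0.0428. No pairing by replicate number was visible in these values, which cannot exclude a shared culture or batch. Members and lists were chosen with earlier results of these data known. Named were all members, in each list of other genes up to 2 higher and 2 lower with the largest change among those that passed, Cdkn1a and Mdm2, the 3 genes nearest to the members with the largest rise and fall on the log2(FPKM + 1) scale, and overlapping or neighbouring genes where a result turns on them. Mnat1, named beside them, was chosen after its values were seen, and Mms19 was named to say what its list held. Alternatives were the pseudocount, the filter, the scaling, voom, a replicate block, leaving out each library, the authors' test and other peak thresholds.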

Additional observations from a re-analysis of the deposited data

How the results depend on the processing

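Counts of members that passed stayed within 1.5 times under the alternatives run, 8 or 9 of 10, except with a filter at 5 FPKM, where Ddb2, Ercc6 and Ercc1 were no longer tested and 6 of 7 passed, 3 of them higher. With quantile normalization 9 members passed, but not the same ones, since Ercc1 dropped out and Ddb1 entered as lower. Leaving out 1 library at a time gave 8 to 9 members (5 higher and 3 to 4 lower) and 38 to 45 of the other genes. With the replicate number as a block (replicate block fit), 9 members and 42 other genes passed, the same counts as without it. Of 31 named genes, 27 kept direction and call under all alternatives run for them, and the exceptions were Xpc, Ercc1, Tcea1 and Ddb1, whose values stand in the report. Mnat1, Mms19, the cell type markers and the nearest, overlapping and neighbouring genes were not among the 31, and their values were not followed under the alternatives. Ddb1 turned to -0.07 with rescaling to a common sum, -0.15 with quantile normalization and -0.04 with voom. The planned TMM scaling of voom was not run, although the recovered fragments would have allowed it. Scaling by library totals was chosen in its place after seeing the data. The log2 change of Xpa ranged from -5.82 to -2.98. An adjusted p of 0.01 left 5 of 9 differential member peaks, and assigning peaks by overlap with the gene span gave 10 of 28. Depth limits Ercc1 and Ddb2 in control, with 361 and 159 fragments, and Xpa after cisplatin, with 28. It also limits Rpa3 among the other genes, with 95 fragments in control and 233 in cisplatin libraries.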
